A study of Prunus persica with 8 samples.

Results

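The genes described here are 7 neighbouring gene models on peach chromosome Pp01, Prupe.1G531100 to Prupe.1G531700, which form the tandem cluster of dormancy-associated MADS-box (DAM) genes at the evergrowing locus. They were chosen by their identifiers, not by a measured value, as every model from the first to the last of these numbers, and they are 7 of the 26873 genes in the deposited expression table. The table, the annotation used here and the study's methods give these models no description or DAM number, so each is called by its identifier and the cluster name rests on their position. Reads were counted for 6 of the 7 members, and these 6 also passed the minimum of 0.5 TPM on average that a gene needed to be tested.

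MADS-box genes encode transcription factors that bind DNA as dimers. DAM genes belong to the SVP type of this family, arose by tandem duplication in Prunus and are known for growth cessation and for the onset and release of bud dormancy, and their transcript levels follow the seasons. The evergrowing peach mutant, which lacks part of this cluster, keeps growing and fails to set terminal buds.

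RNA was sequenced from lateral shoot tips of 8 mature, untreated peach trees grown in a field, 4 of pillar and 4 of standard growth habit. Each tree gave 1 library, read as single 50-bp ends. All trees came from 1 segregating F2 population of breeding parents and are siblings, not named varieties. Pillar trees carry 2 mutant copies of TAC1, a gene that promotes outward branch angles, and standard trees carry functional TAC1. Each tree was a separate biological replicate, identified by its number in the labels (pillar 4, 7, 8 and 10, standard 7, 8, 9 and 10). The time of year of the harvest is not given in the sources used here. Because the tips are bulk tissue, fewer cells that express a gene and less RNA of it per cell cannot be told apart.

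Between 18429259 and 23994336 reads per tree were assigned to genes, and 22145 to 22507 genes had reads in each tree. TAC1 (Prupe.2G194000) lay at 0.802 to 1.27 TPM in pillar trees and at 17.2 to 28.2 TPM in standard trees, in the direction of the labels. The column names place pillar trees 4 and 7 on sequencing lane 8 and the other 6 trees on lane 6, so lane 8 held pillar trees alone. The words that were to mark meristem and leaf genes matched no annotated gene, and the tissue label was not checked against such markers.

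The 7 members covered 63.4 kb of Pp01, from position 43417246 to 43480648 of peach genome version 2, and no other gene model lay in this span. Prupe.1G531100 had the longest region, 17472 bp on the plus strand (43417246 to 43434717). Both Prupe.1G531200 (255 bp, minus strand, 43421163 to 43421417) and Prupe.1G531300 (958 bp, plus strand, 43426679 to 43427636) lay wholly within it. Farther along the plus strand followed Prupe.1G531400 (43444855 to 43453102), Prupe.1G531500 (43454705 to 43457149), Prupe.1G531600 (43464340 to 43471604) and Prupe.1G531700 (43473533 to 43480648). These 4 regions measured 8248, 2445, 7265 and 7116 bp, introns included.

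The gene models were drawn differently by RefSeq, whose NCBIv2 annotation of the same coordinates had 4 loci over the cluster. LOC18790353 alone covered all of Prupe.1G531300, Prupe.1G531400 and Prupe.1G531500 and 48.5% of Prupe.1G531100. LOC18792812 covered Prupe.1G531200 and 47.4% of Prupe.1G531100, while Prupe.1G531600 and Prupe.1G531700 matched a single locus each, LOC18793896 and LOC18789329. The counting let a read match up to 10 places, and whether it used strand is not stated. Reads shared by the nested models, or by similar tandem copies, may therefore have been split among members, and the level of a single member is uncertain to that extent.

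**Figure D1:**
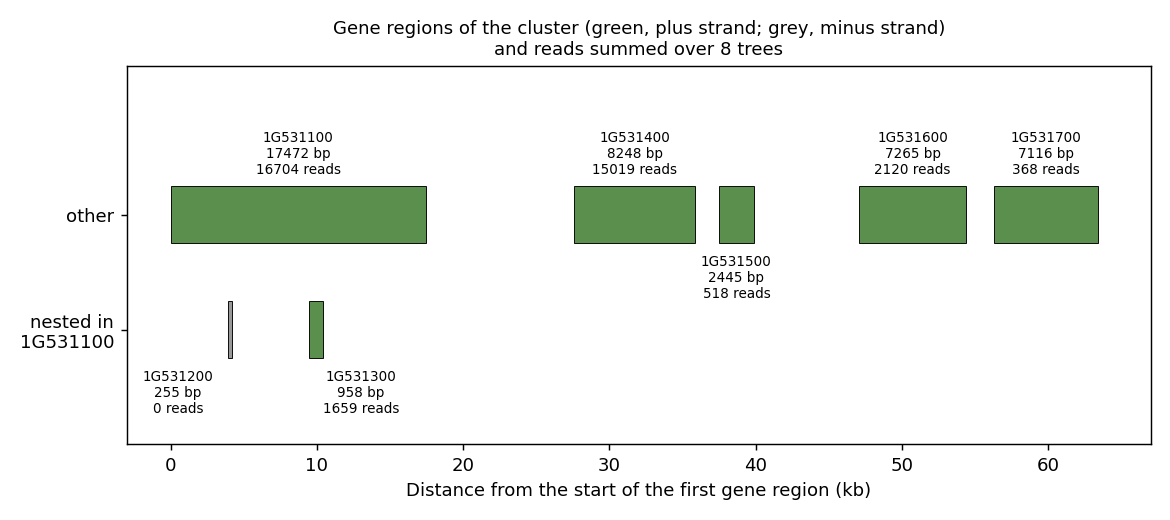
Gene regions of the 7 members by distance in kb from the start of Prupe.1G531100 (green, plus strand, and grey, minus strand), each with its length and its reads summed over the 8 trees. The lower row holds the 2 models nested in Prupe.1G531100, of which Prupe.1G531200 had 0 reads.

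Reads of the cluster were concentrated in 2 members with long gene regions. Of the reads of the cluster over all trees, 45.9% fell in Prupe.1G531100 (16704 reads) and 41.3% in Prupe.1G531400 (15019 reads). Prupe.1G531600 took 5.83% (2120 reads), Prupe.1G531300 took 4.56% (1659 reads), Prupe.1G531500 took 1.42% (518 reads) and Prupe.1G531700 took 1.01% (368 reads). Prupe.1G531200 was listed at 0 in all 8 trees, as were 2465 genes of the table (9.17%). For so short a region, the 3 reads that a count of 0 allows would still correspond to as much as 1.53 TPM in a tree, so low expression of Prupe.1G531200 was not detectable at this depth. Such limits cover counting error only.

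On the TPM scale, which divides reads by region length, the order was different. Mean levels over the 8 trees were 25.9 TPM for Prupe.1G531400, 24.6 for Prupe.1G531300, 13.5 for Prupe.1G531100, 4.14 for Prupe.1G531600, 3.03 for Prupe.1G531500 and 0.731 for Prupe.1G531700. The first 2 could not be ordered, with Prupe.1G531400 above Prupe.1G531300 in 4 of 8 trees, a mean log2 ratio of 0.08 ± 0.39 (SD, n = 8) and a two-sided exact permutation p of 0.563 over the paired trees. Every other step of the order held in 8 of 8 trees. The mean log2 ratios were 0.84 from Prupe.1G531300 to Prupe.1G531100, 1.70 from Prupe.1G531100 to Prupe.1G531600, 0.53 from Prupe.1G531600 to Prupe.1G531500 and 2.01 from Prupe.1G531500 to Prupe.1G531700. Each of these 4 steps had an exact permutation p of 0.0078, the smallest that 8 pairs allow, and 0.00977 after Benjamini-Hochberg adjustment over the 5 steps. The steps were taken from the order of these same values, so each p describes how steady a step was over the trees and is not an independent test of it. Because region lengths include introns, levels of the long models are lowered relative to those of the short, nested Prupe.1G531300, and an order by transcript length was not analysed here.

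Read against the other tested genes, mean levels of the members ranged from the upper part to near the bottom. The 6818 genes under the minimum of 0.5 TPM are left out here. Prupe.1G531700, at 0.731 TPM, lay not far above that minimum, so its low rank holds among tested genes only. Some 32.0% of the 20055 tested genes had a higher mean level than Prupe.1G531400, 33.4% than Prupe.1G531300 and 51.6% than Prupe.1G531100. For Prupe.1G531600, Prupe.1G531500 and Prupe.1G531700 these shares were 78.8%, 83.3% and 97.2%.

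The first question was whether the cluster differed between growth habits. None of the 6 expressed members passed the test for a difference between pillar and standard trees. With limma on log2(TPM + 0.5), adjusted over all tested genes, 0 of 6 had an adjusted p under 0.05, against a background of 0.12% of tested genes. Likewise 0 of 6 had an unadjusted p under 0.05 (background 4.77%), and 0 met the criteria of the study's methods (background 2.23%). These are an unadjusted p of at most 0.05, at least 5 reads on average per growth habit and, from its results, a fold change over 1.5. They were applied here to the p and fold of limma, while the study used those of CLC. The count model voom on the recovered reads also called 0, by adjusted or unadjusted p. In no member were the 2 groups free of overlap (background 2.93%). Of the 6 members, 4 had a slightly higher mean of log2 values in pillar and 2 a lower one. Over all 20055 tested genes, 6153 were higher and 13902 lower in pillar. Their log2 fold changes had a median of 0.07, against -0.09 over all tested genes.

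Prupe.1G531400, the member with the highest mean level, was at 26.7, 39.0, 20.5 and 27.7 TPM in pillar trees 4, 7, 8 and 10. In standard trees 7, 8, 9 and 10 it was at 31.4, 21.1, 17.5 and 23.7 TPM. The highest tree was a pillar and the lowest a standard, but the groups overlapped over most of their range. Pillar trees averaged 28.4 ± 7.70 TPM and standard trees 23.4 ± 5.90 TPM (SD, 4 trees each, as for every SD of a group here). The log2 fold change of pillar over standard, 0.27 (SE 0.23), was the farthest from 0 of the cluster, with a limma adjusted p of 0.902 and an exact permutation p of 0.371. The 95% interval of the fold ran from 0.847 to 1.72, on the scale of TPM + 0.5 as for all folds of the test here.

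Prupe.1G531300, the short model nested in Prupe.1G531100, was at 34.96, 28.5, 14.5 and 19.5 TPM in pillar trees 4, 7, 8 and 10. Its values in standard trees 7, 8, 9 and 10 were 25.6, 24.0, 19.9 and 30.0 TPM. Both the highest and the lowest of the 8 values were in pillar trees, so the pillar group enclosed the standard group. The group means were 24.3 ± 9.14 and 24.9 ± 4.20 TPM, and the log2 fold change was -0.09 (SE 0.26, limma adjusted p 0.953, interval of the fold 0.622 to 1.41).

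The host model Prupe.1G531100 was at 15.6, 15.5, 9.55 and 15.2 TPM in pillar trees 4, 7, 8 and 10. Standard trees 7, 8, 9 and 10 had 15.2, 12.8, 10.1 and 14.3 TPM. Pillar trees 4, 7 and 10 were nearly equal and pillar tree 8 stood apart below them, close to standard tree 9. The pillar mean of 14.0 ± 2.95 TPM and the standard mean of 13.1 ± 2.25 TPM gave a log2 fold change of 0.08 (SE 0.20, limma adjusted p 0.944, interval of the fold 0.779 to 1.44).

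The 3 members of lower level showed the same overlap. Prupe.1G531600 was at 4.66, 4.65, 3.91 and 3.67 TPM in pillar trees 4, 7, 8 and 10 and at 4.91, 4.20, 3.22 and 3.89 TPM in standard trees 7, 8, 9 and 10. It was the steadiest member, with means of 4.22 ± 0.508 and 4.05 ± 0.703 TPM, a log2 fold change of 0.06 (SE 0.17) and an interval of the fold from 0.804 to 1.35. Prupe.1G531500 was at 4.44, 4.20, 1.35 and 2.32 TPM in pillar trees 4, 7, 8 and 10 and at 3.69, 2.98, 2.08 and 3.18 TPM in standard trees 7, 8, 9 and 10. It was the most variable member, its pillar values lying in a high and a low pair on either side of most standard values. Its means were 3.07 ± 1.49 and 2.98 ± 0.672 TPM, the log2 fold change was -0.05 (SE 0.33) and the interval of the fold was the widest of the cluster, 0.578 to 1.61. Prupe.1G531700, at 26 to 68 reads per tree the least deeply covered, was at 0.821, 0.803, 0.588 and 0.796 TPM in pillar trees 4, 7, 8 and 10 and at 1.07, 0.639, 0.405 and 0.734 TPM in standard trees 7, 8, 9 and 10. The standard trees enclosed the pillar trees here, with means of 0.752 ± 0.110 and 0.711 ± 0.274 TPM and a log2 fold change of 0.07 (SE 0.23, interval of the fold 0.735 to 1.5). The limma adjusted p was 0.952 for Prupe.1G531600, 0.979 for Prupe.1G531500 and 0.957 for Prupe.1G531700. Over all 8 trees, which takes no account of lane, the intervals of the 6 members ran at most from a fold of 0.578 to 1.72, and they do not show that the growth habits were alike. Within lane 6 the lower ends of the 95% intervals of the log2 fold change reached -1.24 for Prupe.1G531500 and -1.0 for Prupe.1G531300. With 4 trees against 4, an exact permutation test could not give a p under 0.0286.

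**Figure D2:**
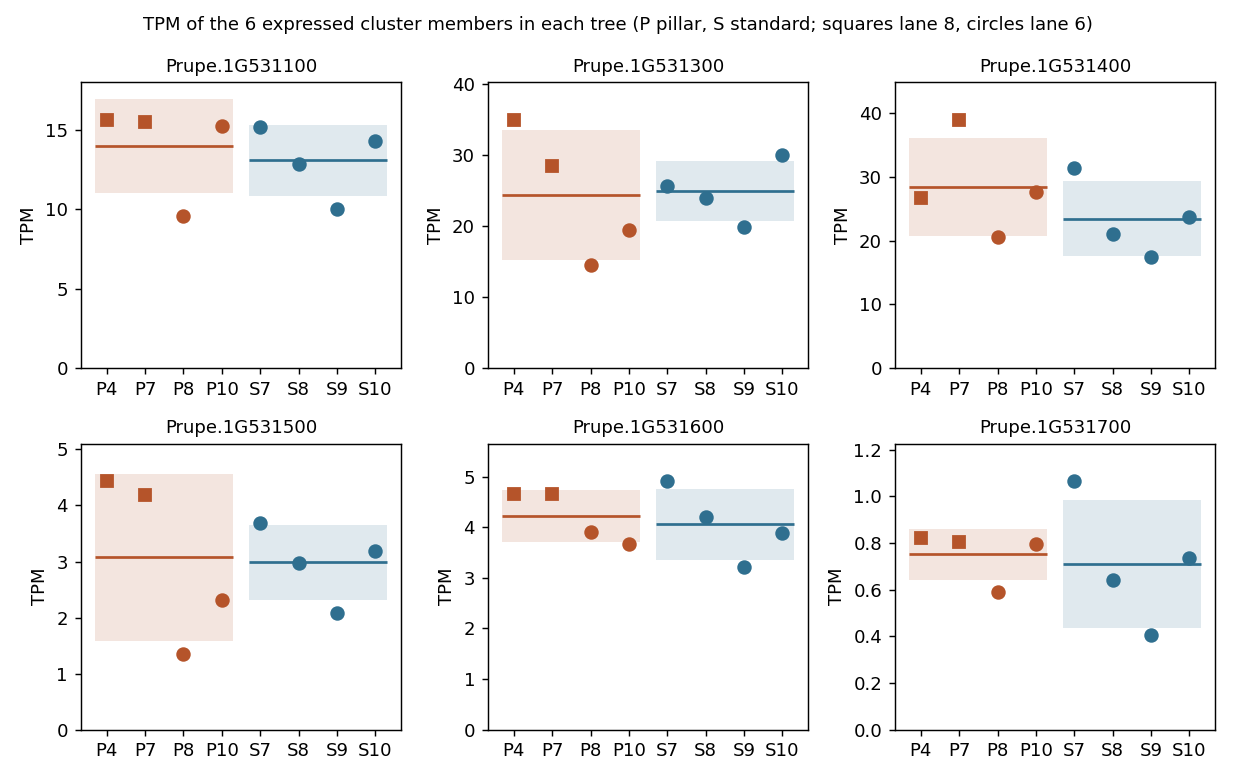
TPM of the 6 expressed members in each of the 4 pillar and 4 standard trees, with one panel per member and with the group means and SD. The groups overlap in every panel, and pillar tree 8 or standard tree 9 is the lowest point in each.

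**Figure D3:**
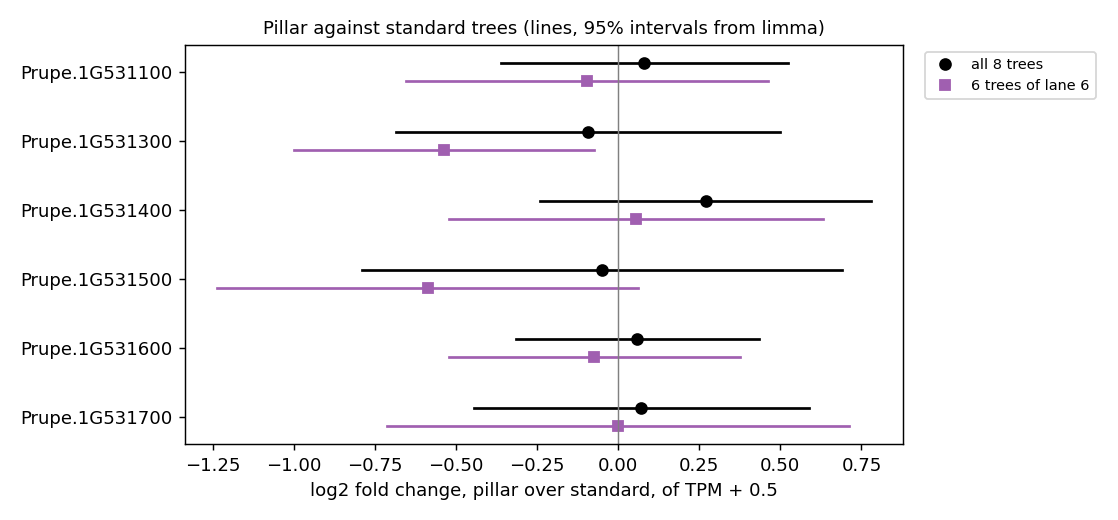
Log2 fold change of pillar over standard trees on the log2(TPM + 0.5) scale for each expressed member, with the 95% interval from limma, over all 8 trees (circles) and over the 6 trees of lane 6 (squares). All intervals over 8 trees include 0, and over lane 6 that of Prupe.1G531300 lies below 0, from -1.0 to -0.07.

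For each expressed member, trees of 1 growth habit differed more from each other than the group means did. Pillar tree 8 was the lowest of all 8 trees for Prupe.1G531100, Prupe.1G531300 and Prupe.1G531500, and standard tree 9 was the lowest for Prupe.1G531400, Prupe.1G531600 and Prupe.1G531700. Pillar tree 4 was the highest for the former 3, pillar tree 7 for Prupe.1G531400, and standard tree 7 for Prupe.1G531600 and Prupe.1G531700. Summed over the cluster, levels ran from 50.4 TPM in pillar tree 8 to 92.6 TPM in pillar tree 7.

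From the lowest to the highest tree, levels spanned 1.53-fold for Prupe.1G531600, 1.64-fold for Prupe.1G531100, 2.23-fold for Prupe.1G531400, 2.41-fold for Prupe.1G531300, 2.63-fold for Prupe.1G531700 and 3.28-fold for Prupe.1G531500. The coefficient of variation among trees was 26.6% for Prupe.1G531400, and counting error alone gave at most 2.77% there. For Prupe.1G531100 these values were 18.3% and 2.57%, for Prupe.1G531300 26.8% and 8.91%, and for Prupe.1G531600 13.9% and 6.88%. The values of each pair were closer for Prupe.1G531500 (35.3% and 18.3%) and for Prupe.1G531700 (26.6% and 19.6%).

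On the scale of log2(TPM + 0.5), some members varied more among trees than the median gene and others less. The SD of log2(TPM + 0.5) over the trees had a median of 0.275 over all tested genes. It was 0.480 for Prupe.1G531500, 0.399 for Prupe.1G531300 and 0.363 for Prupe.1G531400, and 17.9%, 26.6% and 31.7% of tested genes varied more than these. It was 0.277 for Prupe.1G531100, 0.234 for Prupe.1G531700 and 0.182 for Prupe.1G531600, and 49.3%, 61.5% and 76.8% of tested genes varied more. The added 0.5 TPM narrows the SD of Prupe.1G531700, whose mean was 0.731 TPM. Its coefficient of variation, 26.6%, was the same as that of Prupe.1G531400, so its lower rank here depends on the scale. For Prupe.1G531500 and Prupe.1G531300 the SD was 0.669 and 0.554 among pillar trees and 0.296 and 0.241 among standard trees, while for Prupe.1G531700 it was 0.133 among pillar and 0.326 among standard trees. These differences in spread were not tested.

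Among pillar trees, levels were mostly higher on lane 8 than on lane 6. In 5 of the 6 members both pillar trees of lane 8 were above both pillar trees of lane 6 (background 29.3%), with Prupe.1G531400 the exception. The mean of the lane 8 pair over that of the lane 6 pair was 2.35-fold for Prupe.1G531500 (4.32 against 1.83 TPM) and 1.87-fold for Prupe.1G531300 (31.7 against 17.0 TPM). It was 1.36-fold for Prupe.1G531400, 1.26-fold for Prupe.1G531100, 1.23-fold for Prupe.1G531600 and 1.17-fold for Prupe.1G531700. With lane as a term beside growth habit, the limma estimate for lane 8 was 1.08 (SE 0.30, unadjusted p 0.00725) for Prupe.1G531500 and 0.89 (SE 0.23, unadjusted p 0.0046) for Prupe.1G531300 on the log2 scale. An unadjusted p under 0.05 with lane 8 higher was given to 12.6% of tested genes, and after adjustment 0.0% of genes passed, both of these members at an adjusted p of 0.222. With 2 pillar trees on each lane, lane and individual tree cannot be told apart.

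Within lane 6 (pillar trees 8 and 10 against 4 standard trees) the direction of several members changed. Prupe.1G531300 was lower in pillar, with a log2 fold change of -0.54 (SE 0.19, limma unadjusted p 0.0292, adjusted p 0.248), and its pillar values of 14.5 and 19.5 TPM lay below the lowest standard value of 19.9 TPM. Prupe.1G531500 had a log2 fold change of -0.59 (SE 0.27, limma unadjusted p 0.069, adjusted p 0.319). The other 4 members were between -0.10 and 0.05. Only Prupe.1G531300 was thus without overlap in this lane, as were 23.7% of tested genes with pillar below standard, and 14.9% of tested genes had an unadjusted p under 0.05 with pillar lower. No member had an adjusted p under 0.05 (background 0.105%). This 1 member of 6 without overlap is near what genes in general showed.

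Member levels varied together across the 8 trees to differing degrees. All 15 pairs had a positive Pearson r of log2(TPM + 0.5), from 0.49 to 0.95 with a median of 0.74. The closest pair was Prupe.1G531300 and Prupe.1G531500, with r of 0.95 and Spearman rho of 0.90, which are not adjacent and are separated by Prupe.1G531400. The least alike were Prupe.1G531300 and Prupe.1G531400, the 2 members of highest level, with r of 0.49 and rho of 0.43. Prupe.1G531400 stood at 0.762, 1.37, 1.42 and 1.42 times the level of Prupe.1G531300 in pillar trees 4, 7, 8 and 10. In standard trees 7, 8, 9 and 10 these ratios were 1.23, 0.879, 0.881 and 0.789. Thus 3 of the 4 pillar trees and 1 of the 4 standard trees had more Prupe.1G531400 than Prupe.1G531300. The ratios of the growth habits overlapped, and a difference between them was not tested.

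These correlations are descriptions over 8 trees. The members of a pair share the library, its lane and its scaling, and the nested or similar models may also share reads. For comparison, 108 pairs of a member with a gene flanking the cluster had r from -0.73 to 0.87 with a median of 0.10, and the median r of a member with all tested genes lay between -0.03 and 0.27.

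**Figure D4:**
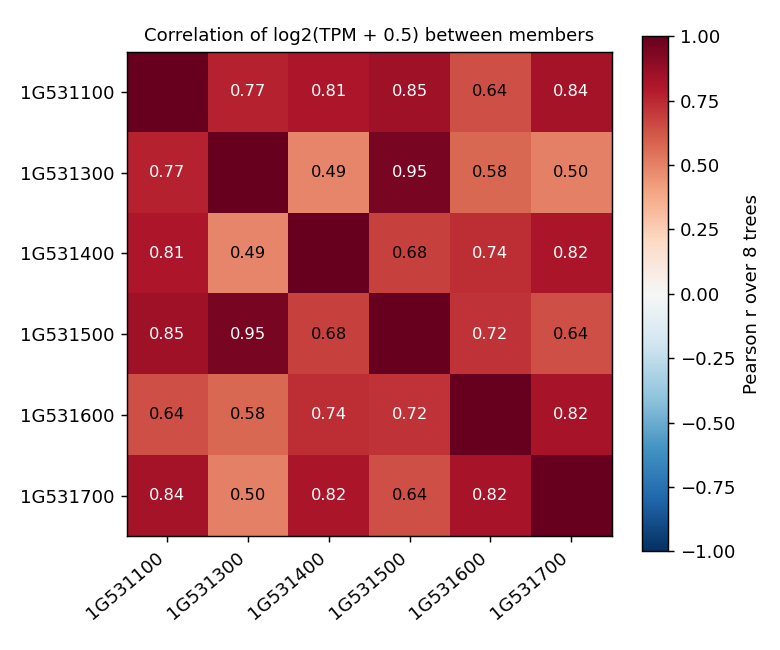
Pearson r of log2(TPM + 0.5) over the 8 trees for each pair of the 6 expressed members, with the colour scale from -1 to 1. All values are positive, highest for Prupe.1G531300 with Prupe.1G531500 (0.95) and lowest for Prupe.1G531300 with Prupe.1G531400 (0.49).

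Genes elsewhere in the genome matched single members more closely than most members matched each other. They were picked as the highest r among all tested genes, far more than the few members, so the comparison is not a like one. The most similar gene outside the cluster was Prupe.6G274800 for Prupe.1G531100 (r of 0.99), Prupe.3G278400 for Prupe.1G531300 (0.99) and Prupe.5G217100 for Prupe.1G531400 (0.97). It was Prupe.1G405500 for Prupe.1G531500 (0.99), Prupe.6G289000 for Prupe.1G531600 (0.98) and Prupe.7G220100 for Prupe.1G531700 (0.98). No gene was among the 3 most similar of more than 1 member. Over the 8 trees, 4.11% of tested genes had r above 0.9 with Prupe.1G531300 and 1.84% with Prupe.1G531500. For the other 4 members the share was 0.219% to 0.464%.

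The genes on either side of the cluster gave no call either. Of the 10 genes on each side, 18 of 20 were tested and 0 passed by adjusted or unadjusted p in limma. In pillar 8 were higher and 10 lower, against 6153 and 13902 of all tested genes, and the median log2 fold change was -0.08. Prupe.1G531000, which ends 4114 bp before the cluster, averaged 37.5 ± 3.35 TPM in pillar against 40.1 ± 1.11 TPM in standard trees, with an SD of 0.099 on the log2 scale. Prupe.1G530900 was at 3.71 and 3.68 TPM. Prupe.1G531800, 838 bp after the cluster, was at 10.1 ± 1.22 and 11.04 ± 0.71 TPM, and Prupe.1G531900 at 19.5 ± 6.19 and 17.5 ± 1.68 TPM. Prupe.1G531000 and Prupe.1G531800 varied less among trees than any member of the cluster did. Other flanking genes varied more than any member, such as Prupe.1G530600 (SD 1.34) and Prupe.1G530800 (SD 0.793), against 0.480 for Prupe.1G531500.

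Genes with annotated roles near those of the cluster could be listed only where the study's table of changed genes named them, and since that table was made from these same trees, their direction is not independent evidence. Of 3 other MADS-box genes, 2 were tested and 0 had a limma adjusted p under 0.05. The homolog of APETALA3, which specifies petals and stamens, averaged 3.61 ± 2.33 TPM in pillar and, in standard trees, 7.72 ± 3.12 TPM (Prupe.1G371300, log2 fold change -1.15, limma unadjusted p 0.0417, adjusted p 0.902). It met the criteria of the methods, though its groups overlapped, and was also the only floral organ marker on the lists. The homolog of CAULIFLOWER, a floral meristem identity gene, was at 19.5 and 13.7 TPM (Prupe.3G307800, log2 fold change 0.50, unadjusted p 0.0196 and adjusted p 0.902 in limma). The AGL6 homolog Prupe.2G287000, at 0.632 and 0.220 TPM, was below the minimum for the test.

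All 3 genes that the study's table places under dormancy had higher means in pillar trees (median log2 fold change 0.61). Of all 20055 tested genes, 6153 were higher in pillar. The 3 genes were listed because the study called them changed in these trees, so this comparison is not a like one. In limma 0 of the 3 had an adjusted p under 0.05. Prupe.6G319600 was at 667 and 394 TPM, its groups did not overlap, and it met the criteria of the methods (log2 fold change 0.74, limma unadjusted p 0.0162, adjusted p 0.902). The DRM1 homolog Prupe.4G050800, a dormancy-associated and auxin-repressed gene, was at 404 ± 148 and 262 ± 92.0 TPM (log2 fold change 0.61, limma unadjusted p 0.0916). Prupe.3G035700 was at 84.7 and 55.5 TPM. The DAM members had log2 fold changes of -0.09 to 0.27 in the same trees.

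Cold and hormone genes on the lists were few. Of 4 genes matched by words for the cold response, 2 were higher and 1 lower at an unadjusted p under 0.05 and 0 passed after adjustment in limma. Of all 20055 tested genes, 373 were higher and 583 lower at this unadjusted p. The cold and hormone genes listed here were already called changed by the study in these trees, so their counts cannot be set against that share. The higher genes were the dehydrin homolog Prupe.7G161200, a protective protein gene, at 160 and 98.9 TPM (log2 fold change 0.65, limma unadjusted p 0.00504) and the SCREAM-like Prupe.6G045200, related to a regulator of cold-induced CBF genes, at 7.06 and 3.37 TPM (log2 fold change 0.92, limma unadjusted p 0.00226). Both of these genes had groups without overlap (background 2.93%) and met the criteria of the methods (background 2.23%). The other dehydrin homolog, Prupe.7G161000, was at 6.67 ± 9.06 and 1.85 ± 1.27 TPM and did not pass. The lower gene, Prupe.1G161500, is described as a splicing factor and was matched only through the words CBF1-interacting, at 0.813 and 2.30 TPM. It met the criteria of the methods, though its groups overlapped. Both carotenoid cleavage dioxygenase homologs on the abscisic acid list were lower in pillar by unadjusted p. Prupe.1G255500, named CCD4 or NCED4, was at 9.48 and 24.6 TPM (log2 fold change -1.42, limma unadjusted p 0.00131, adjusted p 0.386). Prupe.1G449200, named CCD1 or NCED1, was at 8.23 and 15.1 TPM (log2 fold change -1.09, limma unadjusted p 0.0425). Both met the criteria of the methods, and the groups overlapped for Prupe.1G449200 but not for Prupe.1G255500. Their enzyme family includes the step that commits carotenoids to abscisic acid, but whether these genes carry out that step was not tested. Of the gibberellin 2-oxidase homologs, which inactivate gibberellins, Prupe.4G150200 was at 51.7 and 33.97 TPM and Prupe.4G026300 at 0.151 and 1.29 TPM, and 0 of 2 passed at an unadjusted p of 0.05 in limma.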

How the data were processed

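Expression was measured by RNA-seq in 8 trees, grouped by growth habit as labelled. The authors used CLC Genomics Workbench and peach genome version 2 to align single 50-bp reads, and the deposited values are TPM by gene and tree, although their methods name RPKM. A second row for every gene, 0 in all trees, and the authors' own fold changes and p-values were not used. TPM times region length gave whole reads (within 0.05 of a read) for 100% of nonzero values under 10000 reads, so depth was recovered from it.

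Genes averaging 0.5 TPM or more were tested by limma 3.58.1 in R 4.3.3 on log2(TPM + 0.5) over 4 pillar and 4 standard trees with no covariate, with Benjamini-Hochberg adjustment over all of them. The pseudocount understates changes of low genes. Exact permutation tests enumerated every regrouping or sign flip of the trees in Python 3.11.15 with numpy 2.4.6. Spearman rho and the adjustment over the steps of the order used scipy 1.17.1. The fit was tested on simulated data. Alternatives were pseudocounts of 0.1 and 1, no filter, other scalings, voom on recovered reads, lane, the tree-number block and leaving out each tree. Members, gene lists and tests were chosen with earlier results of these data known. Named genes were all members, the 2 nearest genes on each side, the called, lowest-p and most abundant genes of each list, and the most correlated genes. Lists for SVP-type, cell cycle and shoot tip genes matched no annotated gene. Sequences and transcript lengths were not analysed here.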

Additional observations from a re-analysis of the deposited data

Results flagged for a closer look

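Of 12 sets of 4 values (6 members in each growth habit), 2 held a tree far from the other 3, where chance flags about 1 in 20. Both were pillar tree 8, in which Prupe.1G531100 was at 9.55 TPM while the other pillar trees were at 15.2 to 15.6 TPM, and Prupe.1G531700 was at 0.588 TPM while the others were at 0.796 to 0.821 TPM. The 2 flags are not independent, since they share a tree and these members varied together over the 8 trees (Pearson r 0.835). The value of Prupe.1G531100 rests on 1516 reads and that of Prupe.1G531700 on 38 reads. No cause of these values was tested.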

How the results depend on the processing

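No member was called under any alternative, and the lowest adjusted p of a member in limma over the alternatives was 0.248 (Prupe.1G531300 within lane 6). Prupe.1G531400 kept its direction throughout, at 0.11 to 0.42 on the log2 scale with each tree left out. Each of the other members changed sign under some alternative. Prupe.1G531100 ran from -0.035 (without standard tree 9) to 0.25, Prupe.1G531600 from -0.034 (without standard tree 9) to 0.15 and Prupe.1G531700 from -0.060 (without standard tree 9) to 0.20. Prupe.1G531300 ran from -0.29 to 0.12 (without pillar tree 8) and was at 0.0013 without standard tree 10. Prupe.1G531500 ran from -0.24 to 0.23 (without pillar tree 8), and was at 0.03 without pillar tree 10 and 0.05 without standard tree 7. Within lane 6, and equally with lane as a term, Prupe.1G531100 was at -0.10, Prupe.1G531600 at -0.074 and Prupe.1G531700 at -0.00042. Prupe.1G531300 and Prupe.1G531500 moved farthest there, from -0.09 and -0.05 to -0.54 and -0.59. Lane 8 held pillar trees alone, so the fit with a lane term must give the same estimates as lane 6 by itself.

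Deviations of trees that share a number had r of 0.287, 0.096 and -0.091 for numbers 7, 8 and 10. Not every r was above 0.1, so the numbers were not taken to pair the trees. With the replicate block over these 6 trees, Prupe.1G531100 was at -0.10, Prupe.1G531300 at -0.39 and Prupe.1G531400 at 0.16. Prupe.1G531500 was at -0.38, Prupe.1G531600 at -0.079 and Prupe.1G531700 at -0.087. These values were the same over these trees without the block, a fit chosen after seeing the data. The block cannot change them, since each number occurs in both growth habits. Over all genes, 24 had an adjusted p under 0.05 in the main test, 17 to 85 with each tree left out (85 without standard tree 8), 11 with lane as a term, 5 with the replicate block and 27 in the same trees without it. The criteria of the methods were met by 447 genes, by 350 to 732 with each tree left out (732 without pillar tree 4), by 1196 within lane 6, 1159 with lane as a term, 1070 with the block and 878 in the same trees without it. The cause of these changes was not tested. Prupe.1G531700 fell below the minimum with RPKM scaling, and the order of levels by coding length was not run. Depth limits Prupe.1G531500 and Prupe.1G531700, with 30 to 91 and 26 to 68 reads per tree.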
